A study of Mus musculus with 24 samples.

Results

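The 307 windows of 100 bp analysed here are all the rows of the deposited table of the Pspc1 comparison, and each was read in wild-type (WT) mouse embryonic stem (mES) cells as signal of an antibody against 5-methylcytosine (5mC) over unselected input DNA. They are 307 of the 14618 distinct windows that the 4 tables of the series list, and touching windows formed 109 regions, of which 36 were a single window. The 3 WT immunoprecipitated (IP) libraries and the 3 WT input libraries came from cells without siRNA, kept in serum and LIF with the inhibitors CHIR99021 and PD0325901, and cleared of feeder cells before use. DNA was fragmented and denatured, part was saved as input, and the rest was incubated with the antibody (methylated DNA immunoprecipitation, MeDIP-seq). Pspc1-KO cells entered here only through the choice of windows. The table kept windows whose IP signal differed between Pspc1-KO and WT cells, 249 of them lower and 58 higher in the KO. The WT IP libraries thus helped to choose the windows, whereas no input library did. The windows are not a sample of the genome, and the size of the IP signal in them is a description.

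5mC in mammals lies mainly at CpG dinucleotides, where a cytosine precedes a guanine. Most CpGs in the genome are methylated, CpG-dense promoters of active genes are usually not, and imprinted control regions carry methylation on the allele from one parent. MeDIP pulls down fragments rather than single bases, so its signal depends on how many CpGs a fragment holds as well as on the methylated share. Input libraries give the number of reads that a window yields without the antibody. That number is high where a sequence is repeated in the cells but collapsed into few positions in the reference, as is known for ribosomal RNA (rRNA) genes and satellites. Culture with the pair of inhibitors used here is known to lower methylation across the mES cell genome.

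The windows differed widely in sequence. The sequences below are those that the extremes of the comparison rest on, from the forward strand of RefSeq GRCm38, with every CpG in capitals. The first, from an intron of Fbh1, had the largest ratio of IP to input. The Ahnak2 window, in coding sequence, had no input read. The window near Tmem125 had the highest IP signal. The last 4 are an rRNA window with the highest ratio of its block, followed by 3 of the 4 windows that were lower in IP than in input.

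Fbh1 intron, chr2:11744601-11744700: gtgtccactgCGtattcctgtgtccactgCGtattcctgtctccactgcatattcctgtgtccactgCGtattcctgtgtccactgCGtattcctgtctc
Ahnak2 coding exon, chr12:112776901-112777000: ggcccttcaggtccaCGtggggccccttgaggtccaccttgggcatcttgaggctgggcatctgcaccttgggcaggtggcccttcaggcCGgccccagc
Upstream of Tmem125, chr4:118547701-118547800: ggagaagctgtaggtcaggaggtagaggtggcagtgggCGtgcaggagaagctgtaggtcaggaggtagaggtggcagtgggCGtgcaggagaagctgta
rRNA block, chr17:39845701-39845800: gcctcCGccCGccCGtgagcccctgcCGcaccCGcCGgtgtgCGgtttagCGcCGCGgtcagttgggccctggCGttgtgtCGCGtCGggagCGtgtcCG
rRNA block, chr17:39847401-39847500: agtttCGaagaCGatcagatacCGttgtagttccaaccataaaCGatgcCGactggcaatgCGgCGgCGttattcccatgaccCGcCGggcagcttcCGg
No annotated gene, chr3:5860401-5860500: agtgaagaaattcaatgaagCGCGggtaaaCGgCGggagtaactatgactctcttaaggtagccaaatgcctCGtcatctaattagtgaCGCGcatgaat
Zfhx3 intron, chr8:108712101-108712200: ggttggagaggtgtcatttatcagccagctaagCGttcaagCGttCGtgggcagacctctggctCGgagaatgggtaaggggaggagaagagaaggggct

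The CpG number that the table gives for a window, its coupling factor, ranged from 1 to 22, and it equalled the number counted in the reference in all 293 windows with sequence. The Fbh1 window holds 4 CpGs in a tandem repeat that matched itself at 93.8% of bases when shifted by 19 bases. The window near Tmem125 holds 2 CpGs and matched itself at 100% of bases at a shift of 44.

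Depth differed between the libraries, from 20.4 to 39.8 M reads for IP and from 11.3 to 14.8 M reads for input. Values below are RPKM, read counts scaled to window length and library depth, unless a ratio or log2 value is named. One read was worth between 0.675 and 0.887 RPKM in the input libraries, so low input values rest on few reads. Over the 3 input libraries together, 5 windows had no read, 72 had 1 to 3 and 158 had at least 10. The first and second WT IP libraries differed by less than sampling noise (chi-square per degree of freedom 0.94), while the third differed from both (3.14 and 2.04). No pair of input libraries differed beyond sampling noise either (1.09, 0.89 and 1.19). A close pair was counted as 1 sample only where another pair of its group differed, which gave n = 2 for IP and n = 3 for input, so the input SDs given here cover little more than counting error. With the inputs also summed to 1 sample, chosen after the data were seen, the window counts given below stayed at 296 higher and 4 lower, with the lone input assumed to vary like IP. The study describes its genome-wide data as biological replicates, but neither it nor the labels say that these libraries came from separate cultures, so the p-values measure the spread between these libraries, which may be in part technical. Intervals and floors cover counting error only.

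Across the list, antibody signal was far above input. Counts summed over the windows came to 1.12%, 1.10% and 1.06% of the reads of the 3 IP libraries. A read can be counted in more than 1 window, so these and the shares below are not shares of distinct reads. In the 3 input libraries the shares were 0.0839%, 0.0852% and 0.0836%. The means were 1.09% ± 0.034 (SD, n = 2) and 0.0842% ± 0.00087 (SD, n = 3), a 12.9-fold difference with no overlap between groups. Windows with high input held most of these counts. The 12 windows near Tmem125 alone took 40.7% of all listed IP reads and 18.7% of the listed input reads. Without the windows whose input was over 10 times the single-copy level, which are described below, the shares were 0.301% and 0.00443%, a difference of 0.296 percentage points against 1.01 for the whole list. An exact permutation test (two-sided) gave p = 0.2, which is the smallest p that 2 against 3 samples allow.

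Window by window, 296 of the 307 were higher in IP and 4 were lower (edgeR quasi-likelihood test, adjusted p under 0.05 over all 307). The share called was 97.7% in either direction, 96.4% higher and 1.3% lower, and because the members are the whole list this background is the members' own count. At an unadjusted p under 0.05, 300 windows passed. All 3 IP libraries lay above all 3 input libraries in 296 windows (96.4%) and below them in 5 (1.63%). The median log2 ratio of IP to input, with 0.1 RPKM added to both, was 5.20, and the IP libraries' own spread in this median was 0.042 (SD, n = 2). In the 158 windows with at least 10 input reads the median was 3.56. Without the added 0.1, and with the windows at 0 input set at the floor of 3 reads over the group, the median ratio was 37.5. The ratio reached 100 in 70 windows and stayed under 4 in 69. These counts hold for scaling by whole-library depth. Scaled instead to the listed windows themselves with TMM factors, which moved the median log2 ratio by -4.45, 146 windows were higher and 95 lower, a split that speaks of windows relative to each other.

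**Figure D1:**
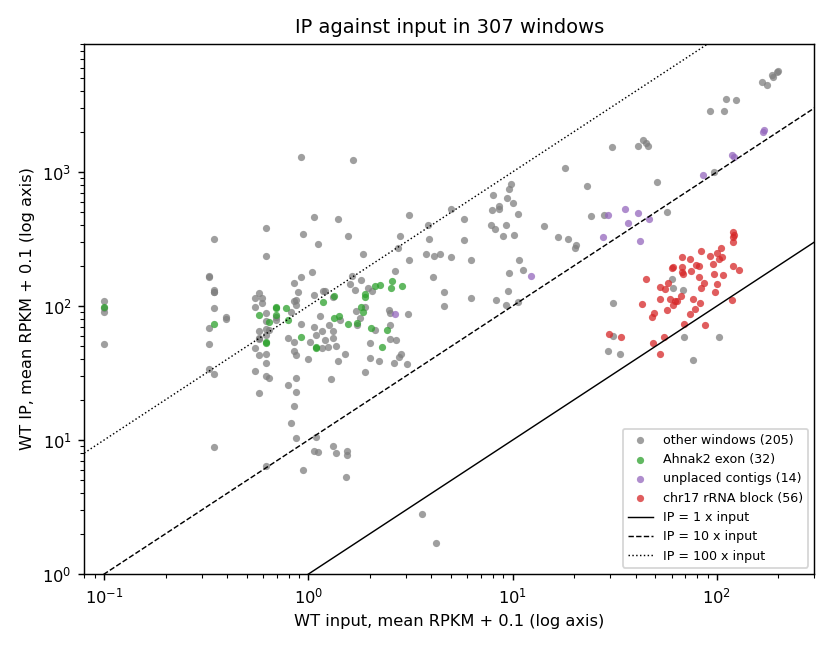
Mean RPKM of WT input (horizontal) and WT IP (vertical) in each of the 307 windows, both with 0.1 added and on log axes. Points stand for windows, coloured by group, and lines mark IP at 1, 10 and 100 times input. Most windows lie above the line for 10 times, while the 56 windows of the rRNA block lie below it, between -0.28 and 1.82 on the log2 scale.

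By the rule for naming regions, 8 regions had the largest ratio among the 44 regions whose deepest window had at least 10 input reads. The first was an intronic region of Cdc20b, a gene related to the mitotic activator Cdc20, at chr13:113056701-113057000. IP values there were 395, 415 and 402 RPKM. Input values were 2.96, 2.66 and 3.83 RPKM, so the groups lay far apart, and IP was 128 times input (adjusted p = 2.7e-163, edgeR quasi-likelihood test over regions). An intergenic region at chr13:117308901-117309100 followed with 325, 324 and 323 RPKM in IP and 2.96, 2.22 and 2.70 RPKM in input, a ratio of 123. IP libraries agreed closely here, and the error of the ratio lay mainly in the input.

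Introns of Def8, which overlap the long locus Gm20388 on chromosome 8, gave 3 of the 8 regions. At chr8:123434001-123434100 the IP values were 685, 653 and 679 RPKM and the input values 4.45, 10.7 and 8.78 RPKM, a ratio of 84.7. The other two had ratios of 78.7 (chr8:123430001-123430300) and 69.4 (chr8:123428401-123428800). All windows of these Def8 regions were higher in IP, and all were among those listed as higher in the KO. The remaining 3 regions were an intron of Plpp1, a phospholipid phosphatase gene, with a ratio of 76.2, a window 86420 bp from the start of Klf14, a Krüppel-like factor gene, with 71.8, and an exon of the gene model Gm5989 with 62.4. The 3 regions on chromosome 13 were listed as lower in the KO and the 5 on chromosomes 6 and 8 as higher.

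Still higher ratios occurred where input was close to 0, and there the input limits what can be said. The Fbh1 region, in an intron of a gene for a DNA helicase with an F-box, had 1269, 1244 and 1266 RPKM in IP and 1.11, 1.77 and 0.675 RPKM in input. It was chosen after its values were seen, since its windows held only 3 and 6 input reads. In the first of its windows, printed above, IP reads were 1706 times input reads after scaling to depth, with a 95% interval (exact Clopper-Pearson) from 584 to 8275. In Ahnak2, whose product is a very large scaffold-type protein, the window printed above had 94.3, 99.8 and 101 RPKM in IP. It had no read in any input library. IP was 130 times the floor of 3 reads over the group, and the exact 95% interval began lower, at 106. This window was the only region with 0 reads in all inputs. In larger regions 4 further windows had none, among them windows in exons of Zfp777 and at chr15:99380701-99380800.

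The rule for regions at protein-coding exons or within 1 kb of a start took the 8 largest log2 ratios of 39 such regions, and all were at exons. Of these, Ahnak2 gave 3, and Zfp777 and the imprinted gene Plagl1 gave 1 each. The zinc finger gene Zfp777 had 7 coding windows at chr6:48024701-48025400, with 91.6, 85.5 and 83.1 RPKM in IP and 0, 0.634 and 0.579 RPKM in input (216 times, interval 51.8 to 2741, taken at the mean count per window as in the other regions of several windows). Ahnak2 held 32 windows in all, in 16 regions of its repetitive coding exon. Over these 32 windows IP ranged from 48.3 to 155 RPKM, input from 0 to 2.79 RPKM, and the median log2 ratio was 5.99. All 32 were higher in IP. The middle 32 bases of an Ahnak2 window occurred between 1 and 17 times in the reference, always on chromosome 12, and 32-base words were shared between most of its regions, so their reads may be split by the aligner among the repeats of the same exon and the windows are not independent.

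**Figure D2:**
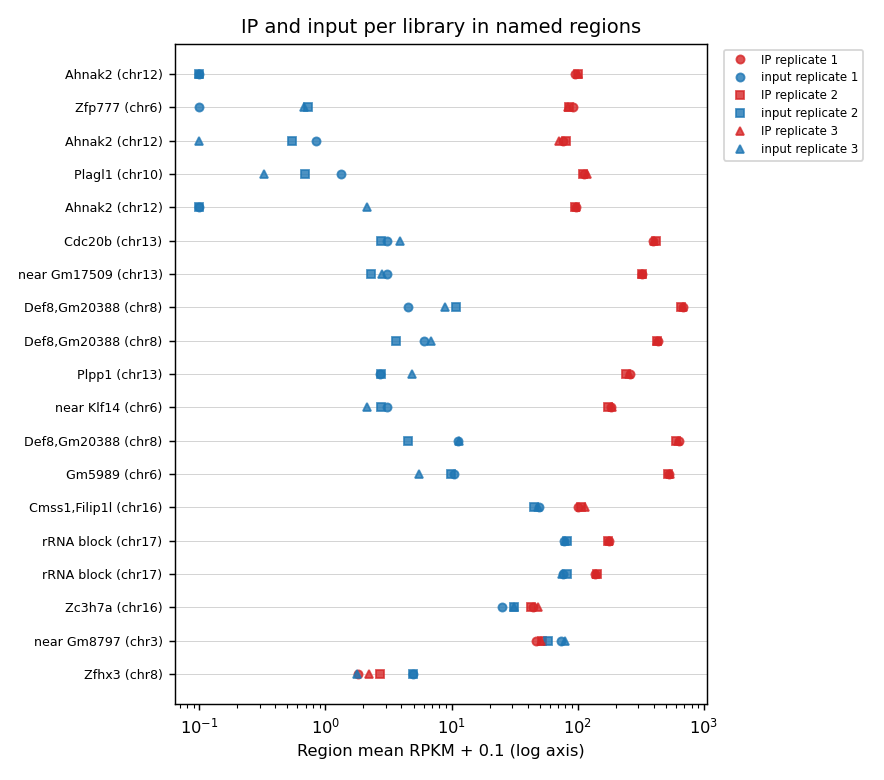
Region mean RPKM plus 0.1 (log axis) in each of the 3 IP (red) and 3 input (blue) libraries for the regions with the largest and smallest ratios and those described at protein-coding exons, ordered by log2 ratio, with circles, squares and triangles for replicates 1, 2 and 3. The IP points of a region nearly coincide, input points at the top rest on 0 to a few reads, and the Zfhx3 and chromosome 3 regions at the bottom have IP below mean input.

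Of 4 lists of genes, imprinted loci alone were represented. A region lay in or within 5 kb of 4 of the 21 genes in the imprinted list, and of none of 15 germline, 12 pluripotency and 16 DNA methylation machinery genes. Gnas and Nespas share a window, so the 4 genes gave 3 regions. The share of all annotated genes near a region was not computed, so these counts show no preference for a list. The imprinted regions held 5 windows, all higher in IP, beside the 96.4% of all windows that were. At Plagl1, an imprinted zinc finger gene, the 3 exonic windows at chr10:13090801-13091100 had 112, 111 and 118 RPKM in IP and 1.24, 0.592 and 0.225 RPKM in input (170 times, interval 54.7 to 946), and the log2 ratio of 7.19 was 7.82 without the first input library. The window at the start of Nnat, an imprinted gene expressed from the paternal allele that lies inside Blcap (chr2:157560001-157560100), had 65.3, 65.8 and 63.8 RPKM in IP. Its input was 2.96, 0 and 0.675 RPKM, and the mean ratio 53.3. It rests on 5 input reads (pooled reads, interval 21.8 to 158), and the log2 ratio of 5.62 was 7.21 without the first input library. The Gnas window overlapped a coding exon of the gene for the stimulatory G protein subunit and its antisense transcript Nespas, 481 bp from a Gnas start (chr2:174284801-174284900). Here IP was only 6.38, 10.4 and 8.04 RPKM against 0.741, 0.887 and 2.70 RPKM in input, a ratio of 5.69 (adjusted p = 8.6e-06, edgeR quasi-likelihood test over regions). It rests on 6 input reads (interval 2.37 to 15.3), and the log2 ratio of 2.43 was 3.19 without the third input library. The 3 loci therefore covered a wide range of IP signal, and the Gnas window was listed as higher in the KO while the other two were listed as lower.

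High input marked a separate set of windows. The 50 regions found once in the reference (by the middle 32 bases of their windows) had a median input of 1.11 RPKM, and windows were grouped by their input relative to that level, called the single-copy level. Found once in the reference does not mean once in the cells, since 3 of the 50 regions lie in the rRNA block described below. The median was 0.984 RPKM without them. Input was under 2 times the level in 144 windows, 2 to 10 times in 56 and over 10 times in 107. All 144 windows of the first class were higher in IP, with a median log2 ratio of 6.30. In the second class 54 were higher and 1 was lower (median 5.46), and in the third 98 were higher and 3 were lower (median 1.41). The third class held the 56 windows of the rRNA block, with a median of 1.03, while its 13 windows on unplaced contigs had one of 3.56 and its other 38 windows one of 4.29. IP itself was higher in the classes with more input, from a median of 75.2 RPKM to 220 and 200 RPKM, so the fall of the ratio came with a still larger step in input, from 0.817 to 4.41 and 67.3 RPKM. The ratio contains the input and must fall with it in part. Over the 307 windows the log2 ratio had a Spearman correlation of -0.77 with input (Pearson -0.78), whereas log2 IP had one of 0.54 (Pearson 0.52) with log2 input. Windows are neighbours from shared libraries and not independent replicates, so these values describe the list.

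The highest IP and the highest input occurred together at a tandem repeat on chromosome 4, upstream of Tmem125, with 12 windows in 2 regions. At chr4:118548101-118548500 IP was 5401, 5209 and 4603 RPKM and input 179, 182 and 182 RPKM, a ratio of 27.4. At chr4:118547001-118547800 IP was 3265, 3080 and 2941 RPKM and input 105, 108 and 105 RPKM, a ratio of 28.9. Input at the first of them was 163 times the level of single-copy regions, the highest of all 109 regions, and at the second it was 95.2 times that level. The third IP library was the lowest of the 3 at both regions. On the unplaced contig JH584304, the other two of the 4 regions with the highest input had 1316 ± 5.92 and 2018 ± 45.1 RPKM in IP (SD, n = 2) and 120 ± 10.6 and 169 ± 9.76 RPKM in input (SD, n = 3), with ratios of 11.0 and 11.9. All 14 windows on unplaced contigs were higher in IP, with log2 ratios from 2.85 to 5.04. A further region of this kind, chosen after its values were seen, lies at the start of Sfi1, a gene for a centrosomal protein, and in Drg1 (chr11:3192901-3193800), with 1205 ± 9.05 RPKM in IP, 38.4 ± 2.05 RPKM in input and a ratio of 31.4.

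Repeats within a window, looked for after the values were seen, were found in 22 of the 70 windows with a ratio of 100 or more. Of the 293 windows with sequence, 41 in 16 regions matched themselves at 80% of bases or more at some shift from 2 to 50 bases. All 41 were higher in IP, with log2 ratios from 3.84 to 10.46 and a median of 6.76, beside 5.18 in the other 252 and 5.66 in the 196 of those outside the rRNA block. Of the 18 windows with sequence and IP of at least 1000 RPKM, 11 were such repeats. The 37-base repeat in an intron of Npas3, a gene for a neuronal PAS-domain transcription factor, had 324, 340 and 331 RPKM in IP and 0.247, 1.18 and 1.13 RPKM in input over chr12:53707201-53707800.

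At the other end, signal in the rRNA block on chromosome 17 was only 2.06 times as high in IP as in input. Its 56 windows lie between positions 39843001 and 39848800, in exons of the gene models Gm26917, CT010467.1, AY036118 and Gm42418, with CT010467.1 annotated as rRNA. rRNA genes encode the structural RNAs of the ribosome, and mammalian genomes carry them in long tandem arrays of which only part is active. In the first IP library the windows ran from 45.2 RPKM through a median of 152 to 371 RPKM, in the second from 39.8 through 153 to 347 RPKM, and in the third from 45.2 through 147 to 353 RPKM. In the input libraries the medians were 71.9, 73.2 and 75.6 RPKM, and the windows ran from 33.3 to 123, from 26.6 to 142 and from 29.0 to 127 RPKM. IP was therefore higher at most windows but within reach of input, with a median ratio of 2.05.

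Counts in the block came to 0.0898%, 0.0892% and 0.0896% of the reads of the 3 IP libraries. For the 3 input libraries these shares were 0.0424%, 0.0446% and 0.0431%. The means were 0.0896% and 0.0434% ± 0.0011 (SD, n = 3), a ratio of 2.06. The listed windows outside it took 0.999% ± 0.034 and 0.0409% ± 0.00054, a ratio of 24.5. Thus 56 of 307 windows held 51.5% of all listed input reads and 8.22% of all listed IP reads. In the edgeR test 50 of the 56 were higher in IP, 1 was lower and 5 did not pass. Within the block the log2 ratio varied from -0.28 to 1.82, with the highest at chr17:39845701-39845800, where IP was 159, 166 and 155 RPKM and input 44.5, 45.3 and 44.6 RPKM. The lowest, at chr17:39847401-39847500, had 67.8, 71.5 and 74.1 RPKM in IP and 83.7, 92.3 and 86.4 RPKM in input, so that all IP libraries lay below all inputs (ratio 0.821, adjusted p = 0.0125, edgeR quasi-likelihood test). Both windows are printed above, with 16 and 11 CpGs. Inside the block, log2 ratio and CpG number had a Spearman correlation of 0.25.

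**Figure D3:**
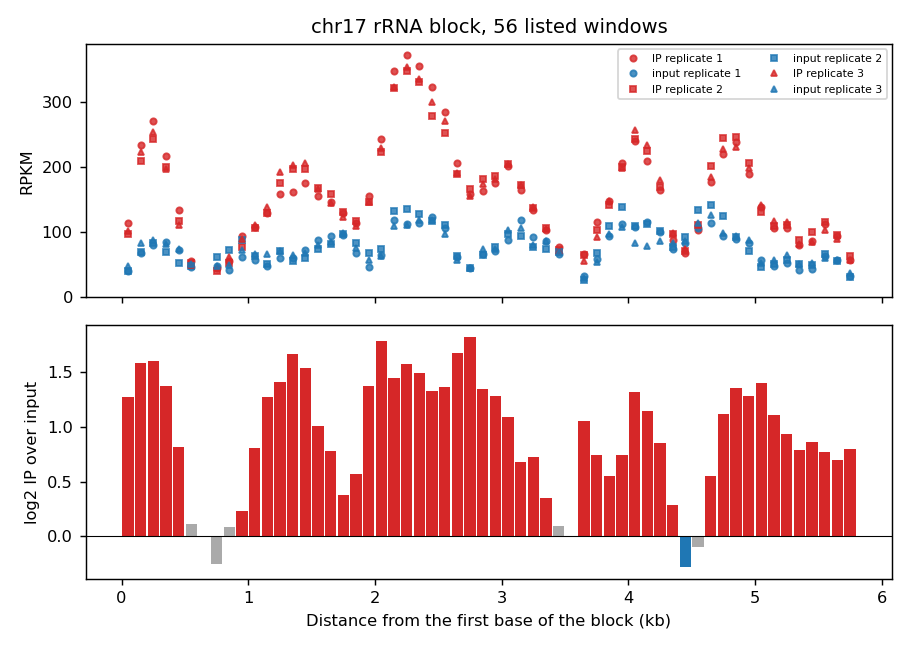
RPKM of each WT IP (red) and input (blue) library along the rRNA block (top) and log2 ratio of IP to input (bottom), by distance in kb from the first base of the block. Symbols stand for replicates, and bars are red where IP was higher, blue where lower and grey where the test was not passed. IP rises and falls in several waves with all 3 libraries together, between ratios of 0.821 and 3.54.

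Windows with a ratio under 4 lay mostly where input was high. Of the 69 such windows, 56 were the whole rRNA block and 66 had input over 10 times the single-copy level. Of the 8 regions with a ratio under 4, 7 were in that input class. The other 3 windows were the pair in Zfhx3 and 1 in the protocadherin gene Pcdha5. No region outside the block shared a 32-base word with it, among 100 regions with sequence.

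By the rule, the 6 regions with the smallest ratios included the rRNA regions at chr17:39843701-39846500 (ratio 2.21) and chr17:39846601-39848800 (1.80), and an intron shared by Cmss1 and Filip1l, which lie on opposite strands (chr16:57391301-57391700). The last had 100, 105 and 113 RPKM in IP and 49.3, 45.0 and 48.5 RPKM in input, a ratio of 2.27. An intronic window of Zc3h7a, a zinc finger gene, had 44.2, 42.6 and 48.0 RPKM in IP and 25.2, 31.1 and 31.1 RPKM in input (chr16:11143901-11144000, ratio 1.57, adjusted p = 9.2e-05, edgeR quasi-likelihood test over regions). All 3 IP libraries lay above all 3 input libraries there.

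In a stretch on chromosome 3 with no annotated gene, at chr3:5860401-5860800, input exceeded IP. As background, the window printed above holds a stretch known from the conserved 28S rRNA, so rRNA-like sequence remains among the windows outside the chromosome 17 block. IP was 46.5, 52.2 and 51.0 RPKM over the region and input 73.0, 58.1 and 79.4 RPKM, with no overlap (ratio 0.715, adjusted p = 2.5e-05, edgeR quasi-likelihood test over regions). Along its 4 windows the ratio rose from 0.514 and 0.578, both called lower, through 0.858, not called (adjusted p = 0.0561), to 1.30, called higher (adjusted p = 0.0254, edgeR quasi-likelihood test). The middle 32 bases of its windows occurred between 1 and 9 times in the reference. The call of the last window was lost without IP replicate 2 or 3 and without input replicate 1 or 3 (adjusted p from 0.0598 to 0.118), and with the replicate number as a block (adjusted p = 0.0561). The window before it was called lower without the second input library (adjusted p = 0.0103, edgeR quasi-likelihood test) and with every library as its own replicate (adjusted p = 0.0368).

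The Zfhx3 intron, in a gene for a homeobox transcription factor, was the region with a low ratio but without input over 10 times the single-copy level. Over chr8:108712101-108712300 IP was 1.72, 2.60 and 2.14 RPKM and input 4.82, 4.88 and 1.69 RPKM, overlapping ranges with a ratio of 0.566 (adjusted p = 0.16, edgeR quasi-likelihood test over regions). Its first window, printed above, was called lower with 0.982, 1.89 and 1.76 RPKM in IP against 5.19, 4.44 and 2.70 RPKM in input (adjusted p = 0.0145). That call rested on 16 input and 13 IP reads and was lost without the third IP library, the first input library or the second input library, with adjusted p-values of 0.0714, 0.0886 and 0.0861. Of the 4 windows called lower, the 2 on chromosome 3 and the rRNA window kept the call without each library in turn.

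The relation of the ratio to CpG number differed with and without the rRNA block. The Spearman correlation of log2 ratio and CpG number was -0.04 over all 307 windows (Pearson -0.12). The median log2 ratio was 4.85 in the 39 windows with 1 to 2 CpGs, 5.23 in the 90 with 3 to 5, 5.50 in the 104 with 6 to 9, and 2.13 in the 74 with 10 or more. The last class held 32 of the 56 rRNA windows. Without the block, a step chosen after the values were seen, its median was 6.76, the medians of the first 3 classes were 4.85, 5.35 and 5.83, and the correlation was 0.31. In the 131 windows found once in the reference and outside the block it was also 0.31. In the 144 windows with input near the single-copy level it was 0.36. The direction therefore turned with the rRNA windows. With at least 10 input reads required it was -0.40 over 158 windows. Outside the block, median IP in the 4 classes was 130, 100, 97.4 and 120 RPKM, in order of CpG number. Median input there was 2.58, 2.20, 1.38 and 0.779 RPKM. Log2 IP had a Spearman correlation of -0.086 with CpG number in those windows, and log2 input one of -0.28. In the 144 windows with input near the single-copy level these values were 0.28 and -0.21.

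**Figure D4:**
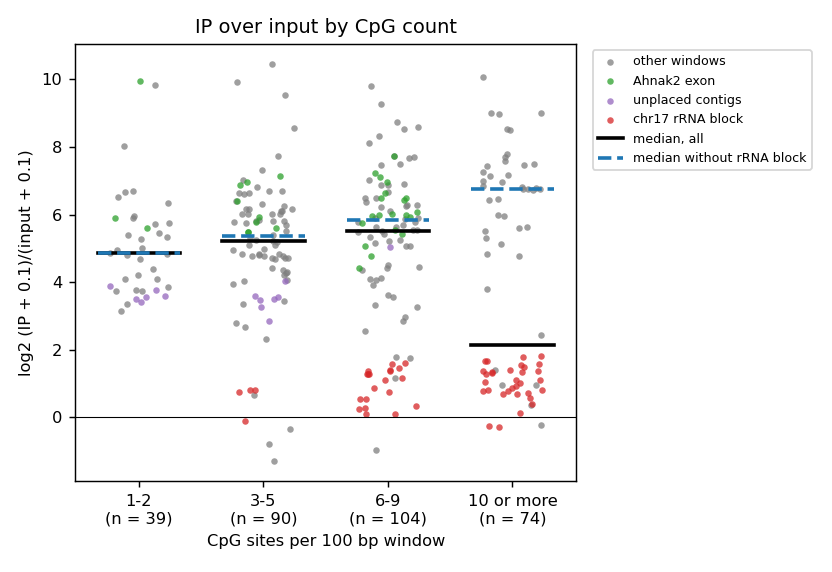
Log2 ratio of IP to input (0.1 RPKM added) in windows grouped by CpG number, with one point for each window. Black bars are medians of all windows and dashed blue bars medians without the rRNA block, which lie furthest apart in the class with 10 or more CpGs, at 2.13 against 6.76.

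The regions with the most CpGs kept high ratios. At chr15:99380701-99381200, with 13 to 22 CpGs per window, IP was 72.6, 76.1 and 72.2 RPKM and input 0, 0.710 and 0.405 RPKM (207 times, interval 46.2 to 3348), and the log2 ratio of 7.28 was 7.92 without the second input library. At chr7:121245801-121246000, with 14 and 16 CpGs, IP was 169, 177 and 171 RPKM and input 0.741, 0 and 1.01 RPKM (273 times, interval 84.9 to 1641). Among windows with a single CpG, the one at chr17:88839301-88839400 had 37.8, 34.5 and 38.9 RPKM in IP and a ratio of 14.9, the one in an intron of the Golgi transport gene Golt1b a ratio of 30.8, and the one at chr13:114409101-114409200 a ratio of 56.9. The last rests on 7 input reads (interval 25.2 to 130), and its log2 ratio of 5.75 was 6.78 without the third input library. Windows with 1 CpG were thus well above input in these 3 regions. A further region with 1 CpG, chr6:148766801-148766900, tied with them in CpG number but was not named. Its mean IP was 6.25 RPKM and its ratio 12.0, on 2 input reads (interval 3.26 to 105).

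The relative methylation score of the table, a fraction from 0 to 1 in which IP signal is corrected for CpG number, followed IP rather than the ratio to input. It had a Spearman correlation of 0.72 with log2 IP, -0.66 with CpG number and 0.09 with the log2 ratio (Pearson 0.81, -0.58 and 0.17). The score is computed from IP and CpG number, so the first 2 of these values are partly set by its making. With at least 10 input reads its correlation with the log2 ratio was 0.64. Of the 253 windows with a mean score of 0.5 or more, 4 were not higher in IP than in input, 1 of them lower, and 54 had a ratio under 4. Conversely, 54 windows scored under 0.5, and in 32 of these IP was at least 10 times input.

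The highest scores were at the tandem repeat near Tmem125 (0.978 and 0.927, region means) and at chrUn_JH584304:80601-80800 (0.968). The lowest were in the Zfhx3 intron (0.275), the Gnas window (0.297) and the Pcdha5 exon (0.317), where IP was 5.16, 4.97 and 6.03 RPKM and input 0.741, 2.66 and 0 RPKM. The rRNA block scored between 0.45 and 0.677 with a median of 0.557, close to the median of 0.542 in windows with input near the single-copy level, although their median log2 ratios were 1.03 and 6.30. The Cdc20b region and the Zc3h7a window, with scores of 0.649 and 0.6, had ratios of 128 and 1.57.

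**Figure D5:**
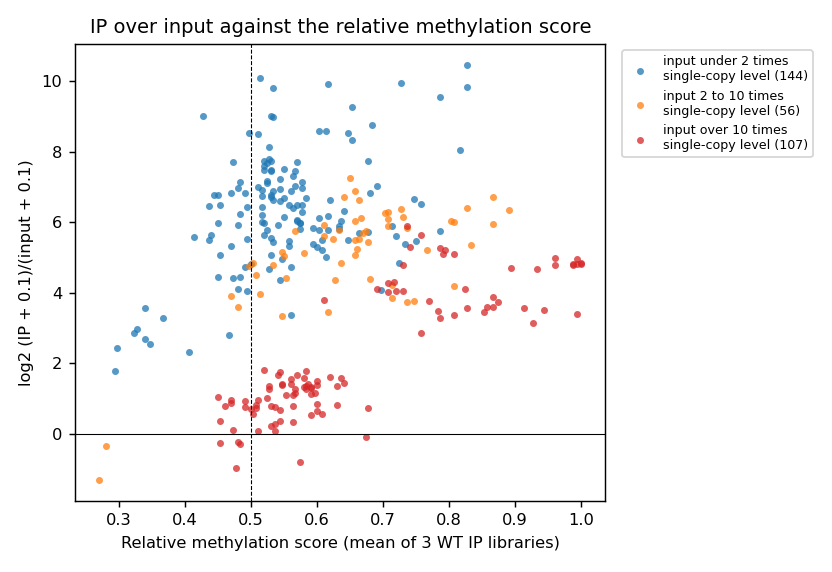
Log2 ratio of IP to input against the relative methylation score (mean of the 3 WT IP libraries), one point for each window, coloured by input relative to the single-copy level. At scores between 0.45 and 0.677, the range of the rRNA block, the 67 windows with input over 10 times that level, 56 of them the block itself, have a median log2 ratio of 0.96, while the 112 with input under 2 times it have a median of 6.43.

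In WT cells the median log2 ratio was 5.20 in the 249 windows listed as lower in the KO and 5.11 in the 58 listed as higher. Among windows with input under 2 times the single-copy level the medians were further apart, at 6.75 in 108 windows and 4.77 in 36. Median WT IP signals were 127 and 49.2 RPKM over the 249 and 58 windows, and 89.8 and 32.5 RPKM over the 108 and 36. Since WT IP helped to place a window in either class, no test was made. Outside that experiment, 171 of the 307 windows (55.7%) were also listed in the comparison of Tet2-KO with WT cells under control siRNA, of which they were 1.2%. In its 3 WT libraries treated with control siRNA, which have no input of their own here, IP had a median log2 ratio of 4.84 to the WT input used above, beside 5.24 for the WT IP libraries without siRNA. All 3 of these libraries lay above all 3 inputs in 116 of the 171 windows, which include 50 windows of the rRNA block. Sets of libraries that were totalled in separate tables are compared here, so the levels are set side by side without a test.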

How the data were processed

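MeDIP-seq was measured in 24 samples in 8 groups of 3, of which the 3 WT IP and 3 WT input libraries were used here. Per the labels, the authors trimmed reads with Trimmomatic 0.39, mapped them to mm10 with Bowtie2 2.4.1 and used Picard to take out duplicate reads. Pspc1-KO and WT IP libraries were then compared by them in windows of 100 bp with MEDIPS and edgeR, without copy-number correction and with at least 10 reads per row. The deposited table held only windows with a Bonferroni-adjusted p under 0.1, together with the authors' mean columns, log2 ratios and p-values of that comparison, which were not used. The deposited counts were raw reads per window and library. The deposited RPKM values were computed by the authors from those counts, and the relative methylation score is a fraction that the authors obtained from MEDIPS for every IP library.

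Dividing counts by RPKM gave the total of each library, and RPKM was recomputed from them without rounding. Counts were tested with edgeR 4.0.16 (quasi-likelihood, group as the only term, recovered totals as library sizes, Benjamini-Hochberg adjustment over all 307 windows at 0.05), with DESeq2 1.42.0 as an alternative. On simulated data, 195 of 200 windows changed 4-fold were recovered, with 4 false calls among the 107 unchanged windows. Each simulated window took its base rate from the mean of IP and input libraries together. Simulated inputs were therefore deeper than the real ones wherever IP exceeded input. The simulation cannot show how the test performs at the real input depth. The first 2 WT IP libraries, which agreed within sampling noise over windows with at least 20 reads, were summed for the test and averaged elsewhere. Log2 ratios had 0.1 RPKM added. A window without input reads was set at a floor of 3 reads over the group. Regions were tested on the mean count of their windows. Input classes were set against the median of single-copy regions, not the genome mean that had been planned, because a read can be counted in more than 1 window. Windows were placed on GENCODE M21 genes, and copies were exact matches of a window's middle 32 bases in GRCm38, both strands. Named regions were those with the 8 largest and 6 smallest ratios (at least 10 input reads in the deepest window), the 4 highest inputs, the 3 highest IP values without input reads, the 3 highest and 3 lowest CpG numbers and scores, the 8 largest log2 ratios at protein-coding exons or within 1 kb of a start, and those within 5 kb of listed genes. One locus that this rule named is not reported here. The windows, lists and tests were chosen with earlier results of these data known.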

Additional observations from a re-analysis of the deposited data

How the results depend on the processing

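All 307 windows were selected for a difference between KO and WT IP libraries, so no value here extends to the genome, and precision at low input is set by 1 to 3 reads. The count of 296 windows higher and 4 lower in IP depended on the scaling. TMM gave 146 higher and 95 lower and the size factors of DESeq2 157 and 87, since both centre on the listed windows. DESeq2 with the recovered totals gave 295 and 4. Fewer windows entered with at least 10 input reads (147 higher and 5 lower of 158), windows found once in the reference (171 and 2 of 178) and regions (107 and 1 of 109). At an adjusted p under 0.01, 294 were higher and 2 lower. Leaving out each library gave 293 to 297 higher and 3 to 4 lower. Without the third IP library the remaining pair is 1 sample, assumed to vary like the inputs. Deviations of IP and input libraries of the same number had correlations of -0.021, -0.2 and 0.07 over 115 windows. Inputs differed by no more than sampling noise, so these values cannot show whether the libraries were paired. The labels do not say that equal numbers share a DNA preparation, so the replicate block may not be a paired test. Every library as its own replicate gave 296 higher and 5 lower, and the replicate block added to that fit gave 295 and 4. The inputs summed to 1 sample gave 296 and 4.

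The median log2 ratio of 5.20 was 4.95 and 4.72 with 0.5 and 1 RPKM added, 3.56 with at least 10 input reads, 4.89 in windows found once in the reference, 5.62 over regions and 5.13 to 5.20 without each library. The difference in library share of 1.01 percentage points was 0.999 to 1.03 without each library, 0.179 without windows over 10 times the genome mean in input, and 0.296 without those over 10 times the single-copy level. For windows found once in the reference, at least 10 input reads, 1 RPKM added, regions, windows outside the rRNA block and windows with low input, in this order, the correlation with CpG number was -0.17, -0.40, -0.058, 0.22, 0.31 and 0.36. With input depth it was -0.76, -0.57, -0.64, -0.60, -0.67 and -0.55. With the methylation score it was 0.19, 0.64, 0.22, 0.064, -0.064 and 0.26. The last 2 settings, the share set against the single-copy level and the summed inputs were added after the data were seen. The CpG correlation reversed over regions, without the block and at low input, and the score correlation without the block. Removing the rRNA windows alone turned both, and the cause of the reversal over regions was not tested. Of the 178 windows found once, 47 lie in the block, and the other 131 had a median log2 ratio of 5.63, with 128 higher and 1 lower. None of the 34 named regions changed direction in 272 recomputed values, of which 260 moved by less than the spread between libraries.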
